A study of Arabidopsis thaliana with 12 samples.

Results

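AT1G30870, AT3G49960 and AT4G26010 are Arabidopsis thaliana genes of the class III peroxidase family, also known as PER7, PER35 and PER44, and they lie on chromosomes 1, 3 and 4. They were selected on their log2 signal in all 12 arrays, which had moved over time with that of the root hair expansins EXPA7 and EXPA18, so their levels and changes over time are given as a description, without a test. Each was measured by a single probe set (265102_at, 252238_at and 253998_at), and together they make up 3 of the 13286 genes that could be named on the array and 3 of the 55 measured class III peroxidase genes.

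The samples were hand-dissected root tips of 0.5 mm from Col-0 seedlings at 4 days post germination, about 200 tips to each of 12 ATH1 arrays, in 4 groups of 3 biological replicates. All seedlings, the mock group included, carried the transgene pCRE1_XVE::MIR165A, in which the stele-specific CRE1 promoter drives XVE, a transcription factor that ß-estradiol activates and that then switches on the microRNA precursor MIR165A. The group called 0 h was kept on mock plates with ethanol only, and the others were kept for 6 h, 10 h or 24 h on plates with 5 µM ß-estradiol. Neither estradiol-treated seedlings without the transgene nor mock seedlings of the later times were among the samples, so the microRNA's effects and those of estradiol exposure or its length cannot be told apart. Inductions were staggered, so that seedlings of all groups were close in age when collected. The arrays' median log2 signals lay between 5.97 and 6.13, and the number of arrays limits the precision.

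Class III peroxidases are secreted heme enzymes that use hydrogen peroxide. In the cell wall they cross-link extensins and phenolic compounds, which stiffens the wall, and they can also form radicals that loosen it. Root hairs are tubular outgrowths of single epidermal cells that grow at their tip, and their walls are built with expansins, extensins and peroxidases. AT4G26010, known as PRX44 too, is one of the peroxidases for which a role in root hair growth has been reported. The labels place the induced microRNA in the stele, the central vascular cylinder, while root hairs belong to the epidermis.

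AT1G30870 was the gene with the largest swing of the 3. Its log2 signal was 5.56, 4.96 and 5.61 on the mock arrays and 5.37, 5.71 and 5.87 at 6 h. At 10 h it was 8.08, 8.04 and 8.53, and at 24 h it was 5.50, 5.87 and 6.88. The 10 h arrays lay above every other array, the 24 h arrays overlapped those of 6 h and 0 h, and replicate 3 of 24 h stood about midway between the mock arrays and the 10 h arrays. The 10 h mean exceeded the mock mean by 2.84 (SE 0.28), a 7.16-fold difference, which was the third largest rise among the 22746 probe sets tested and the largest among the peroxidases. In whole tips a change in the number of cells of a type cannot be told apart from a change in RNA per cell.

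AT3G49960 was lower in signal and its 10 h arrays were the tightest of its groups. The mock arrays gave 4.07, 3.69 and 4.49 on the log2 scale, and the 6 h arrays 4.13, 4.41 and 4.64. The 10 h arrays gave 6.15, 6.24 and 6.31 (SD 0.080, n = 3), and the 24 h arrays 4.59, 4.76 and 5.16. Here too the 10 h arrays stood above all others, and the 24 h arrays lay just above the highest mock array, as was so for 6.85% of probe sets, while overlapping the 6 h arrays. At 10 h the mean was 2.15 (SE 0.19) above mock, a 4.43-fold difference.

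AT4G26010 rose least and came back furthest. Its log2 signal was 4.30, 3.82 and 4.58 on the mock arrays and 4.41, 4.26 and 4.54 at 6 h. It was 5.81, 6.07 and 6.37 at 10 h and 4.13, 4.28 and 4.73 at 24 h. The 24 h arrays overlapped the mock and 6 h arrays, though 24 h replicate 3 lay above all of these, and the 10 h arrays stood above every other array. The 10 h mean was 1.85 (SE 0.19) above mock, a 3.61-fold difference.

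**Figure D1:**
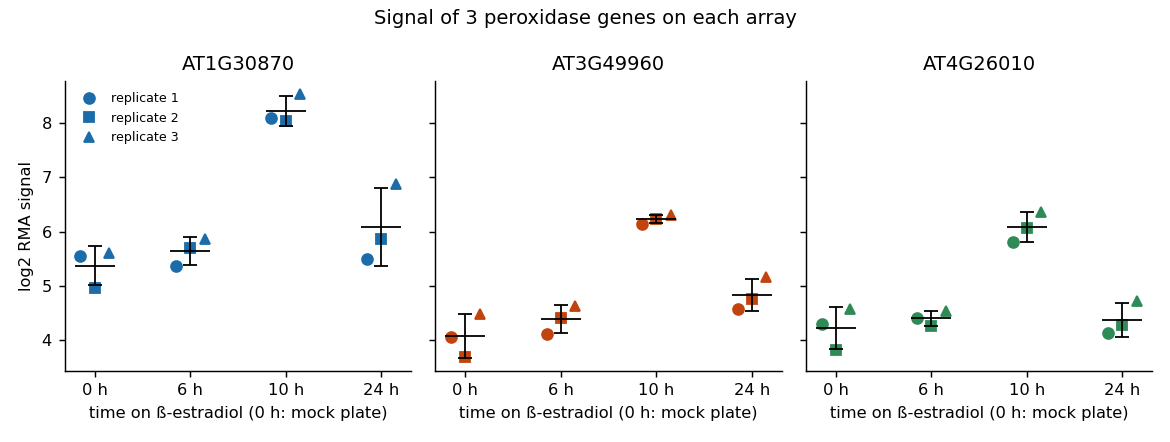
Log2 RMA signal of AT1G30870, AT3G49960 and AT4G26010 (vertical axis) on each of the 12 arrays by time on ß-estradiol (0 h is the mock plate); symbols are replicates, black lines the mean and SD of 3 arrays. In each panel the 10 h arrays are above all others, and replicate 3 is the highest of the 24 h arrays.

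In order of their mean level the groups ran 0 h, 6 h, 24 h and 10 h for AT1G30870 (means 5.38, 5.65, 6.08 and 8.22) and for AT3G49960 (means 4.09, 4.39, 4.84 and 6.23). For AT4G26010 the order was 0 h, 24 h, 6 h and 10 h, with means of 4.23, 4.38, 4.40 and 6.08. Neighbours in these orders overlapped in their arrays everywhere except at the step to 10 h. On the log2 scale the excess over mock was already present at 6 h as 9.61% of the 10 h excess for AT1G30870, 14.3% for AT3G49960 and 9.22% for AT4G26010, each within the spread of the mock arrays. All 3 genes were among the 4.70% of probe sets called higher at 10 h than at 0 h by limma (Benjamini-Hochberg adjusted p under 0.05), and their 10 h and mock arrays did not overlap, as was so in the higher direction for 12.5% of probe sets. These counts follow from how the genes were chosen.

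Most of the rise took place between 6 h and 10 h. Over that step AT1G30870 gained 2.57 (SE 0.28), AT3G49960 gained 1.84 (SE 0.19) and AT4G26010 gained 1.68 (SE 0.19) on the log2 scale, against 1.75 (SE 0.26) for EXPA7 and 1.31 (SE 0.20) for EXPA18, which encode wall-loosening proteins of root hair cells. Of all probe sets 1.17% were called higher over this step, and 10.1% had 10 h arrays all above their 6 h arrays, as the 3 peroxidases did. Between 10 h and 24 h AT1G30870 dropped by 2.13, AT4G26010 dropped by 1.70 and AT3G49960 dropped by 1.40, the second, 10th and 24th largest falls of the 22746, while 1.06% of probe sets were called lower. The 24 h arrays of each gene lay below all 3 of its 10 h arrays, as was so for 11.0% of probe sets. The steps share the 10 h arrays, so a chance excess there would raise the one and deepen the other.

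**Figure D2:**
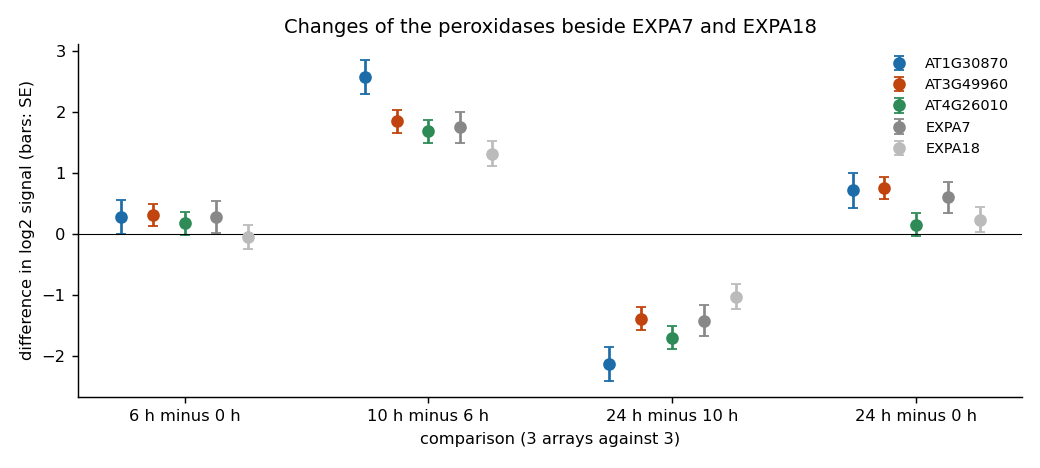
Differences in mean log2 signal (points, with limma's moderated SE as bars, 3 arrays against 3) between successive times and from 0 h to 24 h for the 3 peroxidases, EXPA7 and EXPA18. All 5 genes gained between 1.31 and 2.57 from 6 h to 10 h and lost between 1.03 and 2.13 from 10 h to 24 h; the comparisons share arrays.

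The genes differed in how much of the rise was left at 24 h. On the log2 scale AT3G49960 kept 34.9% of its 10 h excess over mock, AT1G30870 kept 25.0% and AT4G26010 kept 7.91%. The differences from mock at 24 h were 0.75 (SE 0.19), 0.71 (SE 0.28) and 0.15 (SE 0.19). Those of AT3G49960 and AT1G30870 were thus alike, and their shares differed because AT1G30870 had risen further at 10 h. The 24 h value of AT1G30870 rested largely on a single array, since without 24 h replicate 3 the difference from mock was 0.31, while that of AT3G49960 was then 0.59 and that of AT4G26010 was -0.03.

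Whether the 3 genes changed by unequal amounts was tested, though on the same log2 values of the 12 arrays that had served to choose them. What the choice did to the p values was not tested, so they are given as a description. On each array the log2 value of one gene was subtracted from that of another, and the 4 times were compared by an exact permutation test of the F statistic over all 369600 assignments of the 12 arrays to groups of 3, for all 3 pairs. Each pair passed this test, which takes the arrays as unpaired. The adjusted p of the exact permutation test was 0.0311 for AT1G30870 against AT3G49960, 0.0243 for AT1G30870 against AT4G26010 and 0.0243 for AT3G49960 against AT4G26010. When the replicate number was taken as a block, AT1G30870 against AT4G26010 was the single pair that still passed.

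AT1G30870 stood further above AT3G49960 at 10 h than at the other times. Their difference was 1.29 ± 0.19 (SD, n = 3) at 0 h, 1.26 ± 0.037 after 6 h, 1.98 ± 0.22 after 10 h and 1.25 ± 0.42 after 24 h. The 10 h arrays ran from 1.79 to 2.22, above all others, though 24 h replicate 3 came close at 1.72. This pair no longer passed without 10 h replicate 3 (exact permutation, adjusted p = 0.0983), without 10 h replicate 1 (exact permutation, adjusted p = 0.0566) or after quantile normalisation (exact permutation, adjusted p = 0.0621). AT1G30870 also stood furthest above AT4G26010 at 10 h, with a difference of 1.14 ± 0.11 (SD, n = 3) at 0 h, 1.24 ± 0.25 after 6 h, 2.13 ± 0.16 after 10 h and 1.70 ± 0.41 after 24 h. In this pair 24 h replicate 3, at 2.15, lay among the 10 h arrays and the other 24 h arrays below them.

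AT3G49960 and AT4G26010 had risen by more similar amounts at 10 h and came apart most by 24 h. Their difference was -0.15 ± 0.074 (SD, n = 3) at 0 h, -0.01 ± 0.24 after 6 h, 0.15 ± 0.20 after 10 h and 0.46 ± 0.019 after 24 h. The 24 h arrays gave 0.46, 0.48 and 0.44, above every array of the other groups, of which the highest was 0.34. Unlike the levels of the genes, this difference was not set apart on 24 h replicate 3. RMA understates changes of dim probe sets, and AT3G49960 and AT4G26010 were dimmer than AT1G30870; the part this had in the unequal changes was not tested.

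**Figure D3:**
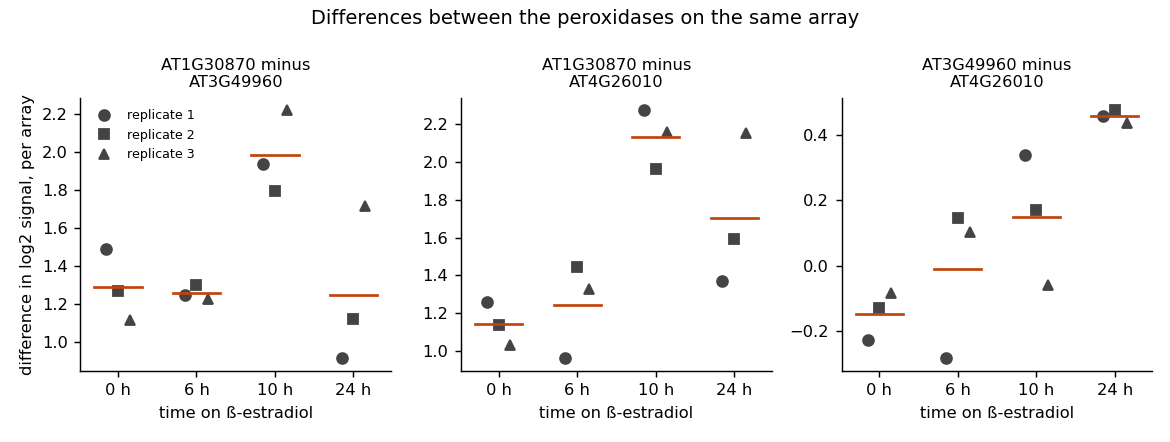
Difference in log2 signal between pairs of the 3 peroxidases on the same array (vertical axes, with a scale of their own) by time on ß-estradiol; symbols are replicates and lines the means of 3 arrays. AT1G30870 stands furthest above the other genes at 10 h, and AT3G49960 stands furthest above AT4G26010 at 24 h, where the arrays lie between 0.44 and 0.48.

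Within the groups the 3 genes tended to be high or low on the same arrays. Mock replicate 2 was the lowest mock array and replicate 3 the highest array of 0 h, 10 h and 24 h for each of them, and 6 h replicate 3 was the highest 6 h array for each as well. EXPA7 and EXPA18 also had their highest 24 h value on replicate 3, at 6.17 and 5.79. After subtracting each group's mean, the 12 arrays gave Pearson correlations of 0.84 between AT1G30870 and AT3G49960, 0.83 between AT1G30870 and AT4G26010 and 0.85 between AT3G49960 and AT4G26010. With EXPA7 these within-group values were 0.90 for AT1G30870, 0.75 for AT3G49960 and 0.72 for AT4G26010. With EXPA18 they were lower, at 0.81, 0.51 and 0.60 in the same order. They are descriptions, since values from one array share its RNA, its tips and its normalisation.

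Of 32 listed root cell type markers 7 had a named probe set, and those of the root cap, meristem, hairless epidermis and xylem had none. These few genes do not check the labelled tissue, since the signal of a probe set is above 0 with or without its transcript. The markers measured were EXPA7 and EXPA18 for hair cells (2 of 6), AT1G62500 (CO2) for cortex, GSO1 for endodermis, PHV and MOL1 for stele and OPS for phloem, 5 of 26 for cells other than hair cells. The summed linear signal of the hair cell markers ran from 53.3 to 62.5 at 0 h, from 57.9 to 64.4 at 6 h, from 164 to 209 at 10 h and from 52.3 to 127 at 24 h. Both are the expansins the peroxidases were selected to move with, so their likeness to the peroxidases is no check of cell types. The endodermal marker ran from 44.4 to 62.0 at 0 h and from 74.1 to 99.8 at 10 h, the cortex marker from 69.0 to 87.3 and from 41.3 to 41.9, the stele markers from 253 to 294 and from 238 to 252, and the phloem marker from 36.3 to 42.2 and from 38.4 to 43.6. Of the stele markers PHV changed by -0.52 (SE 0.10) from 0 h to 10 h on the log2 scale and MOL1 by 0.09 (SE 0.09). The lower stele sum thus came from PHV and is not read as a change in stele content. The cortex marker was already at 40.1 to 46.5 at 6 h and was back at 54.8 to 90.7 at 24 h, where AT1G62500 was 0.68 (SE 0.15, limma adjusted p = 0.0385) above 10 h on the log2 scale. At 24 h the endodermal marker ran from 51.7 to 77.7, the stele markers from 218 to 262 and the phloem marker from 47.8 to 51.0. The part of shifts between cell types in the changes of the peroxidases was not tested.

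The genes most like the 3 peroxidases were sought among the other 13433 named probe sets by Pearson correlation over the 12 arrays with the mean of the 3 centred profiles. The 10 highest, with r from 0.94 to 0.98, were AT1G30990, EXPA7, AT2G41970, AT5G42830, AT2G27080, GH9C1, AT1G34330, EXPA18, AT3G12540 and AT1G19900. AT2G41970 encodes MARIS, a receptor-like cytoplasmic kinase of root hair tip growth, GH9C1 encodes a cellulase of root hairs, and AT1G34330 is listed in RefSeq as a transcribed pseudogene. Each of the 10 peaked at 10 h, with rises over mock from 0.60 for AT5G42830 to 2.02 for EXPA7, so that none swung as far as AT1G30870. The nearest, AT1G30990, had means of 4.27, 4.37, 5.55 and 4.54 in the order of time and r = 0.98. Leaving out an array kept 6 to 9 of the 10, the fewest without mock replicate 1 or mock replicate 3, and ranking by Spearman's rho kept 1, so the order is loose. These genes share the arrays and one common step in time with the peroxidases, so a high r shows little beyond a peak at 10 h.

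**Figure D4:**
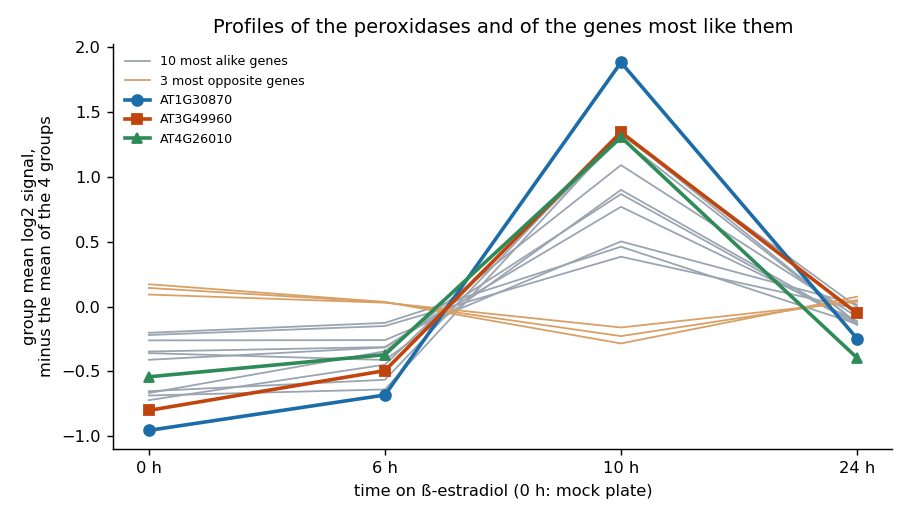
Group mean log2 signal minus the mean of the 4 groups (vertical axis) by time on ß-estradiol for the 3 peroxidases (heavy lines), the 10 genes whose 12 array values correlated best with them and the 3 that correlated most negatively. The 3 peroxidases and the 10 genes like them peak at 10 h, and AT1G30870 has the widest swing.

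The other class III peroxidases were mostly called neither higher nor lower at 10 h. Of the 52 measured, 11 were called higher and 2 lower than at 0 h by limma, against 4.70% and 2.79% of all probe sets. The 2 became 1 without any array of these groups other than mock replicate 3. The median change of the 52 was 0.08, and that of all probe sets was -0.01. The listed genes called with the smallest p were AT4G16270 (1.21), AT5G64100 (1.71), AT3G21770 (1.11), AT2G43480, which fell by 0.71, AT5G17820 (2.05), AT4G11290 (0.88), Prx37 (0.66) and AT5G15180 (0.82). AT5G17820, which encodes PER57, thus rose by about as much as AT3G49960 (2.05, SE 0.36, against 2.15, SE 0.19).

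All 11 read lower at 24 h than at 10 h, by values from -0.90 for AT5G15180 to -0.22 for AT4G11290, in a comparison that shares the 10 h arrays with the rise. Between 10 h and 24 h AT5G15180 was the single one of the 52 called lower (-0.90, SE 0.16, limma adjusted p = 0.0141), and AT2G43480 the single one called higher (0.55), against 1.06% and 0.725% of all probe sets. AT5G15180 was called higher between 6 h and 10 h too (0.95, limma adjusted p = 0.0103), as were 6 of the 52 in all. AT5G17820 read 0.85 lower at 24 h than at 10 h, with SE 0.36 and limma adjusted p = 0.274. The counts over these steps were unstable: the 6 became 0 without 6 h replicate 1 or without 10 h replicate 3, and 2 without 6 h replicate 2, 10 h replicate 1 or 10 h replicate 2. The call on AT5G15180 at 24 h against 10 h was the one of its kind, and the count was 4 without 24 h replicate 3 and 0 without 10 h replicate 3 or 24 h replicate 2. The count of those called higher over that step was 0 without any 1 of the 10 h arrays, 24 h replicate 1 or 24 h replicate 2.

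**Figure D5:**
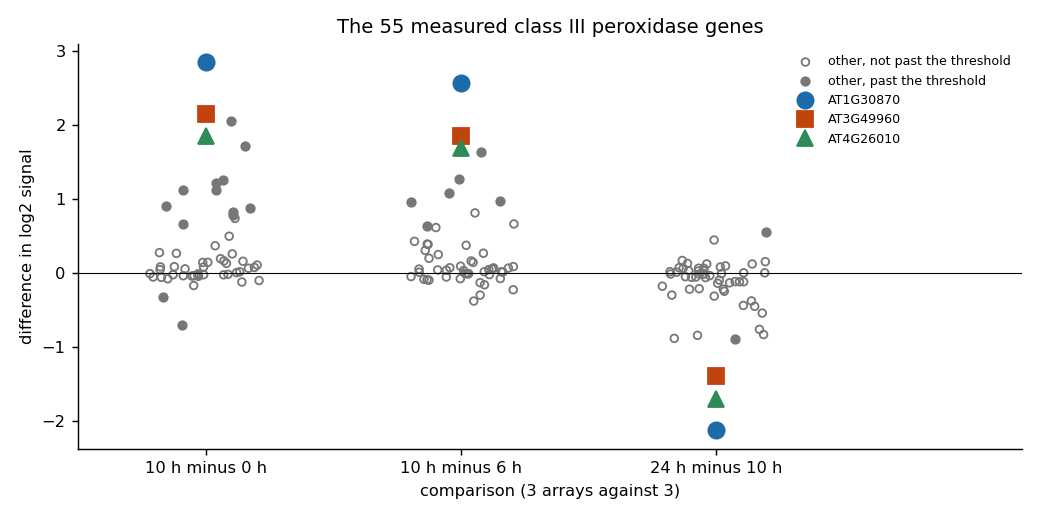
Differences in mean log2 signal (vertical axis, 3 arrays against 3) in 3 comparisons for the 55 measured class III peroxidase genes; filled grey points passed limma's adjusted p of 0.05 and open ones did not. The 3 chosen genes, in colour, lie near the upper edge at 10 h against 0 h and below the others at 24 h against 10 h, where 2 of the other 52 passed; they were chosen for this pattern.

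Genes that work beside peroxidases in the wall were followed in lists written with earlier results of these data known. Of 40 listed root hair genes 5 were measured, and 3 rose at 10 h: EXPA7 by 2.02, EXPA18 by 1.26 and GH9C1 from a mean log2 signal of 3.91 to 5.91, where 4.70% of all probe sets were called higher. EXPA7 and EXPA18 are the genes the peroxidases were selected to resemble, so this count lends them no independent support. XTH26, a xyloglucan endotransglucosylase, and SCN1, a regulator of hair initiation sites, differed by 0.06 and 0.13 and were not called. XTH26 was dim, with mean log2 signals of 3.64 at 0 h and 3.70 at 10 h, so its lack of a call says little. TRY, the single measured gene of 10 for epidermal patterning, fell by 0.71 (SE 0.10, limma adjusted p = 0.000694). TRY, a small MYB protein that acts in the choice between hair and non-hair fates, was already lower by limma at 6 h (-0.57), as were 0.207% of probe sets. Of 8 measured extensin and related wall protein genes, whose products peroxidases cross-link, 4 rose at 10 h and none fell, against 4.70% and 2.79% of all probe sets, with a median change of 0.53. AT3G28550 rose by 1.31 (SE 0.17, limma adjusted p = 0.0005). HRGP1 (1.33), AT5G06630 (0.96) and AT2G43150 (0.50) were the others, and the count was 1 without mock replicate 1 and 2 without any 1 of the 10 h arrays. The probe sets of HRGP1 and AT5G06630 are of a kind that can bind transcripts of related genes.

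NADPH oxidases make the superoxide from which the peroxidases' substrate hydrogen peroxide arises. The 3 measured genes of 23 in that list were oxidases, and AT1G19230 (RBOHE) rose at 10 h by 0.70 (SE 0.10, limma adjusted p = 0.000869), while AT4G25090 (0.59) and AT4G11230 (0.16) were not called. AT1G19230 was dim, with mean log2 signals of 3.21 at 0 h and 3.92 at 10 h. UPB1, a bHLH factor known to repress peroxidase genes at the onset of differentiation, read 0.79 higher at 10 h (SE 0.21, limma adjusted p = 0.0315). That call ended without mock replicate 1 (limma adjusted p = 0.134), without mock replicate 2 and without any 1 of the 10 h arrays. AT4G11290, AT4G16270 and AT5G17820, peroxidase genes that UPB1 is known to bind, also rose at 10 h, as given above. All 4 were thus called higher at 10 h, against 4.70% of all probe sets. All 4 read lower again at 24 h than at 10 h, by values from -0.85 to -0.22 that did not pass the test, where 1.06% of all probe sets were called lower.

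Genes next to the 3 peroxidases on their chromosomes showed no call. In the order of the RefSeq table of assembly TAIR10.1, 11 of the 18 protein-coding genes within 3 places on either side were measured. None of the 11 was called at 10 h against 0 h by limma, where 7.50% of all probe sets were called in either direction. The 11 changes ran from -0.27 to 0.18. The smallest limma adjusted p of the 11 was 0.0745, for AT4G26000 (-0.27). At a share of 7.50%, so few genes could hold no call by chance. AT4G25980, itself a class III peroxidase gene 3 places before AT4G26010, differed by -0.06. AT1G30860 and AT1G30880, on either side of AT1G30870, differed by 0.18 and -0.10, and AT3G49950, next to AT3G49960, by 0.10. AT1G30850, named root hair specific 4 in RefSeq and 2 places from AT1G30870, was not analysed here.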

How the data were processed

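One-colour Affymetrix ATH1 arrays measured expression in 12 samples, with 250 ng of total RNA labelled for each, per the labels' protocols. The deposited values are log2 signals, made by the authors with Affymetrix Expression Console and RMA, limma being named too, per the submitters' processing notes; versions and a genome build are not given in the sources used here. This method subtracts background, brings arrays to one distribution and summarises a set's probes. No further scaling was applied. The 64 control sets among 22810 were not tested. The platform annotation gave 13513 of the remaining 22746 one gene, 503 several and 8730 none, and 13436 matched RefSeq (TAIR10.1). Arrays give no count, so depth is expressed by the number of arrays.

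One linear model over the 12 arrays was fitted in R 4.3.3 (limma 3.58.1), with Benjamini-Hochberg adjustment over 22746 probe sets and a threshold of 0.05; it was tested on simulated data. Differences are of mean log2 values. Permutation tests ran in Python 3.11.15. The genes and lists were chosen with earlier results of these data known. Named genes were the 3 peroxidases, EXPA7 and EXPA18, up to 8 members of each list with the smallest p past the threshold at 10 h (otherwise up to 2), the 10 most alike and 3 most opposite profiles, and the 3 most like each gene; neighbours, AT4G25090, AT4G11230, XTH26, SCN1 and MOL1 were added after their values were seen. The alternatives were median centring and quantile normalisation, leaving out dim probe sets, trend and robust moderation, weights per array, a block for the replicate number, fits on the groups compared alone, a fold minimum of 1.5, Spearman's rho and leaving out each array. Protein and promoter sequences were not used here.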

Additional observations from a re-analysis of the deposited data

How the results depend on the processing

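The differences of the 3 peroxidases between times each moved by less than 1 SD between replicates under all alternatives, and the 10 h minus 0 h difference stayed between 2.63 and 2.96 for AT1G30870, 1.95 and 2.35 for AT3G49960 and 1.65 and 2.02 for AT4G26010. Same-numbered replicates of different groups correlated between -0.10 and 0.28 (median 0.057) after removing group means. Replicates with other numbers correlated between -0.26 and 0.16 (median -0.006). The ranges overlapped, and whether a replicate number marks samples handled together was not tested. With the replicate number as a block, the exact permutation test of unequal change gave adjusted p = 0.0642 for AT1G30870 against AT3G49960 and adjusted p = 0.0521 for AT3G49960 against AT4G26010, and AT1G30870 against AT4G26010 still passed; 3 other peroxidases were then called lower from 10 h to 24 h. After quantile normalisation the first pair had adjusted p = 0.0621. Leaving out an array gave adjusted p from 0.00682 to 0.0983 for AT1G30870 against AT3G49960.

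Of other peroxidases lower at 10 h, 1 in place of 2 was called with the groups' own arrays, with trend and robust moderation and with the 1.5-fold minimum, and 1 to 2 without an array. Higher from 6 h to 10 h were 11 with array weights (and 1 lower), 2 with trend and robust moderation, and 0 to 7 without an array. Higher from 10 h to 24 h were 2 with array weights, 0 with the groups' own arrays or the 1.5-fold minimum, and 0 to 1 without an array. Lower over that step were 8 with array weights, 0 with the groups' own arrays or without dim probe sets, and 0 to 4 without an array. Of the neighbours 1 was called lower at 10 h after centring, after quantile normalisation and with array weights. Of the extensin list 1 to 4 rose without an array. Of the most alike genes 6 to 9 stayed without an array and 1 with Spearman's rho. Centring moved the share of higher calls at 10 h against 0 h from 62.8% to 52.9% and at 24 h against 10 h from 40.5% to 53.0%; the causes of these shifts were not tested. For the other named genes, 264 values under the alternatives stayed on their side of the threshold and 20 lost the call, on HRGP1, UPB1, GSO1, AT5G06630 and AT2G43150.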

Other observations

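A few genes ran opposite to the peroxidases. The 3 lowest correlations with their mean profile over the 12 arrays were those of AT1G09300 (r = -0.95), QQT2 (r = -0.92) and AT1G20220 (r = -0.92). Their dips at 10 h were small beside the peroxidases' rises: against 0 h QQT2 fell by 0.46 (limma adjusted p = 0.00342), AT1G20220 fell by 0.37 (limma adjusted p = 0.0109) and AT1G09300 fell by 0.25 (limma adjusted p = 0.0483). Taken singly, AT1G30870 was most like EXPA7, AT1G30990 and AT3G49960, AT3G49960 was most like AT1G30870, AT2G41970 and AT1G30990, and AT4G26010 was most like AT1G30870, AT1G30990 and AT1G34330. AT1G34330, the transcribed pseudogene, had means of 3.15, 3.23, 3.82 and 3.22 in the order of time, and like AT4G26010 it was back near its mock level at 24 h.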
